A study of Homo sapiens with 14 samples.

Results

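TAp73β was induced for 24 h in Hep3BTAp73β cells, and the response was read on 4 of the 14 arrays of the series: 2 arrays of cells given doxycycline (Dox+) and 2 of untreated cells (Dox−). Members were chosen by label, as all arrays of the 24 h time point. Hep3B is a hepatocellular carcinoma line. Hep3BTAp73β cells carry a tetracycline-regulated TAp73β construct and the Tet repressor, and were selected with blasticidin and G418 and grown from picked resistant colonies. Dox− cells carry the same constructs, so both groups share the line, the selection and the culture time, and Dox+ cells differ by doxycycline at 1 µg/mL. Effects of doxycycline itself and of TAp73β cannot be told apart here, since arrays of untransfected or empty-vector cells given the drug were not analysed here. The other time points were 12 h, with 2 arrays a group, and 48 h, with 3. The labels call the arrays biological replicates.

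p73 is a transcription factor of the p53 family, whose members bind much the same DNA sites. Its TA isoforms keep the transactivation domain, and the β form has a shortened C terminus. p53 family factors switch on CDKN1A, whose product p21 inhibits cyclin-dependent kinases. Cyclin-dependent kinase inhibition leaves the DREAM complex and RB proteins bound at promoters of cell cycle genes, and DREAM reads a short element, the CHR, beside CCAAT boxes bound by NF-Y. In hepatocytes p53 family factors are also known for control of lipid and amino acid enzymes.

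Values are log2 RMA expression values, and differences are Dox+ minus Dox− on that scale, with 1 probe set per gene (that with the highest mean over all arrays). Adjusted p-values are from limma over 19775 genes, with a threshold of 0.05. With 2 arrays a side, each array's value is given for the genes the results turn on. Array medians at 24 h lay between 5.56 and 5.62. Replicates of a group differed with a standard deviation, pooled over genes, of 0.184 (Dox−) and 0.150 (Dox+). Fewer cells of a kind and less RNA per cell cannot be told apart in such bulk samples. All 8 measured hepatocyte markers lay above the median gene level of 6.48, from 8.45 to 14.38, and none of them passed the test. Their log2 fold changes were below 0 for 7 of the 8, with a median of −0.27, and their summed level (log2 of the sum) was 15.79 and 15.78 on the Dox− and 15.72 and 15.69 on the Dox+ arrays. Of 11 endothelial, 10 leukocyte and 12 stellate cell markers, 9, 9 and 10 lay below the median gene, and the lysozyme gene LYZ was the leukocyte marker above it, at 11.68. Leukocyte gene ITGAM (log2 fold change 1.35) and stellate gene LUM (0.64) passed the test, while their other probe sets, at 0.03 and 0.59, did not. The summed stellate markers (log2 of the sum) were 10.15 and 10.18 on the Dox− and 10.47 and 10.51 on the Dox+ arrays. The part of these markers in the results was not tested.

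TP73 was high in both Dox+ arrays, and signal of the construct and of the cells' own gene cannot be told apart here. TP73 measured 5.82 and 6.08 on the Dox− arrays and 8.14 and 8.30 on the Dox+ arrays (log2 fold change 2.27, SE 0.14, limma, adjusted p = 1.03e-04), a 4.83-fold rise with no overlap of the groups. Its other 2 probe sets rose by 0.77 (adjusted p = 0.0402 over all probe sets) and by 0.82 (adjusted p = 0.107), the second of which did not pass. No probe set used here reads HNF4A alone, and this gene was not analysed here.

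At 24 h, 596 genes were higher (3.01% of all genes tested) and 556 were lower (2.81%) in Dox+ cells. The median called rise was 0.84 and the median called fall −0.68 on the log2 scale. Of the called genes, 217 rises (36.4%) and 55 falls (9.89%) were at least 2-fold, and 35 rises but a single fall were over 4-fold on the probe sets used. Without the test, 220 genes (1.11%) were at least 2-fold higher and 56 (0.283%) at least 2-fold lower. In all 1152 called genes both Dox+ arrays lay beyond both Dox− arrays. That share has a background of 26.6% of all genes in the upward and 23.7% in the downward direction. Rises made up 51.7% of the calls, 64.7% after quantile normalization of the deposited values and 33.9% when each array was centred on its own median, so the balance between rises and falls depends on the scaling. Leaving out Dox− replicate 1, Dox− replicate 2, Dox+ replicate 1 or Dox+ replicate 2 left 168, 321, 245 and 375 genes lower at 24 h, and 479, 402, 437 and 488 genes higher at 24 h, with the lone array assumed to vary like the other group.

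Falls outnumbered rises only among the most highly expressed genes. The median Dox− level was 9.35 for genes called lower and 7.37 for genes called higher, against 6.44 for all genes. Dox− values are part of the change that was tested, so they tend to be high in falls and low in rises. On the Dox+ arrays the medians were 8.65, 8.46 and 6.52. Genes were divided by level into 4 classes of like size. In class 4, with the highest levels, 5.89% of genes were called lower and 3.78% higher. The shares were 4.33% and 5.48% in class 3, and 0.971% and 2.63% in class 2. From class 1 to class 4 the median log2 fold change was 0.06, 0.07, 0.01 and −0.09, and in class 4 62.4% of genes lay below 0. Standard deviations over probe sets were 2.38 and 2.33 on the Dox− and 2.28 and 2.32 on the Dox+ arrays. The part of this small tilt in the calls was not tested beyond the scalings above.

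**Figure D1:**
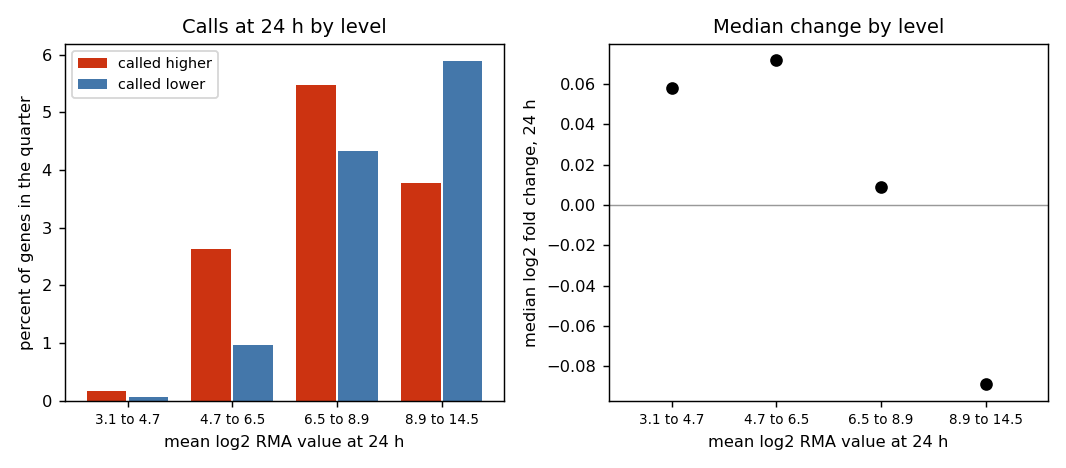
Left: percent of genes called higher (red) and lower (blue) at 24 h in 4 classes of genes by mean log2 RMA value. Right: median log2 fold change of each class. Falls reach 5.89% in the class with the highest levels, where the median change is −0.09.

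Promoter windows are shown for some genes whose change or group the results below turn on, picked from a larger set of windows searched. Each is the 250 bases before the first start that RefSeq lists on GRCh38.p14, read 5′ to 3′ on the strand of the gene. Short motifs were searched on both strands and stand in capitals: a p53 family half-site (by name), the TEAD motif GGAATG (or CATTCC), the E-box CACGTG, the CHR TTTGAA (or TTCAAA) and the CCAAT box CCAAT (or ATTGG). On the probe sets used, S100A2 (chr1:153565845-153566094, minus strand) had the largest rise and GJA1 (chr6:121435396-121435645, plus strand) the largest fall, and neither window held any of the motifs. CCN2 (chr6:131951373-131951622, minus strand), a fall and a known TEAD target, held the TEAD motif 3 times. TAF1A (chr1:222589934-222590183, minus strand), another large fall, held 1 CHR and 3 CCAAT boxes, and the kinesin KIF18A (chr11:28108157-28108406, minus strand) held 1 of each. The windows of CEL, AXL, PRSS35, NRP2, RGCC, CXCL5 and PLK4, not printed, held none of the motifs. Those of AURKB and DEPDC1B, also not printed, held 1 CCAAT box each and no CHR. The DEPDC1B window held 1 p53 family half-site as well.
S100A2: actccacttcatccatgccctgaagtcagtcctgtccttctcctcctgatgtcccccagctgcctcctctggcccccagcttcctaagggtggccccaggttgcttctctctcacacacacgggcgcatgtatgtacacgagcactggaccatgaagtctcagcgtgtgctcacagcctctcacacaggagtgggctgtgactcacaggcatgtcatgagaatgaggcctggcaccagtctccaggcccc
GJA1: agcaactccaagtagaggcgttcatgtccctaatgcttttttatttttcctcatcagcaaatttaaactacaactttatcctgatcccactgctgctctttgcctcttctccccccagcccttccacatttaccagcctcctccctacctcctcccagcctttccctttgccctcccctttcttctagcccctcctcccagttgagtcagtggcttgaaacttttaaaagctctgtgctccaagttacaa
CCN2: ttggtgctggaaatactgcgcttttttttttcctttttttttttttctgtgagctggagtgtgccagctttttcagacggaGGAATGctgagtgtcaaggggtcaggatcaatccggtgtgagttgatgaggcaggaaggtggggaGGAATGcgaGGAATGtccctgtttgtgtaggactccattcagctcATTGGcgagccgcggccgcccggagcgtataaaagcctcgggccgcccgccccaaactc
TAF1A: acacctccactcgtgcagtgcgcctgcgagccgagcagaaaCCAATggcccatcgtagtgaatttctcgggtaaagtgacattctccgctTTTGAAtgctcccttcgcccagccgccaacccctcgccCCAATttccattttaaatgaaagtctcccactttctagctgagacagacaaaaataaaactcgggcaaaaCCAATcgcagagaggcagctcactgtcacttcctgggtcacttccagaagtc
KIF18A: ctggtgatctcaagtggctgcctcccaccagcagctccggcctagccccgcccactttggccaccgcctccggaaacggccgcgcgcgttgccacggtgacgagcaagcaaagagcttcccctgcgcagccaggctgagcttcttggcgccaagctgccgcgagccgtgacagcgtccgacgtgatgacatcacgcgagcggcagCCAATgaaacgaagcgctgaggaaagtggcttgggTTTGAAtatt
A match to these letters is a description and shows no binding.

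GJA1, which encodes connexin 43, the most widespread gap junction protein, had the largest fall on the probe sets used, the brightest of each gene. It measured 9.06 and 8.92 on the Dox− arrays and 6.60 and 6.72 on the Dox+ arrays. The fall was 5.01-fold (log2 fold change −2.33, SE 0.13, limma, adjusted p = 5.61e-05), and the Dox+ arrays lay more than 2 log2 units below either Dox− array. LGR5, an R-spondin receptor known from Wnt-driven stem cells, measured 9.38 and 8.98 on the Dox− arrays and 7.24 and 7.39 on the Dox+ arrays (log2 fold change −1.86, SE 0.16, limma, adjusted p = 3.96e-04), with no overlap, and its other probe set also passed, at −0.93. RGCC, a cell cycle regulator, measured 6.66 and 6.55 without doxycycline against 4.81 and 4.94 with it (log2 fold change −1.73, SE 0.13, limma, adjusted p = 1.98e-04). The other 2 RGCC probe sets were dim, between 3.25 and 4.15 on all 4 arrays, and did not pass. CXCL5, a neutrophil-attracting chemokine, measured 11.59 and 11.62 without doxycycline against 9.87 and 9.90 with it (log2 fold change −1.72, SE 0.12, limma, adjusted p = 1.84e-04). Both of its other probe sets passed in the same direction, at −3.13 and −0.80. The first of these is a larger fall than that of GJA1, so the ranking depends on the probe set. In each of these genes the replicate arrays lay far closer to each other than to the other group.

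CCN2 (CTGF), a matricellular protein and a standard readout of YAP and TEAD activity, measured 10.41 and 10.24 on the Dox− arrays and 8.87 and 8.51 on the Dox+ arrays. It fell 3.11-fold (log2 fold change −1.64, SE 0.16, limma, adjusted p = 7.13e-04), with both Dox+ arrays below both Dox− arrays. TAF1A, a subunit of the RNA polymerase I factor SL1, measured 8.31 and 7.94 without doxycycline against 6.56 and 6.49 with it (log2 fold change −1.59, SE 0.15, limma, adjusted p = 7.27e-04). TMEM158, a membrane protein induced by RAS, measured 8.12 and 8.21 without doxycycline against 6.64 and 6.58 with it (log2 fold change −1.56, SE 0.13, limma, adjusted p = 2.92e-04). In both genes the groups stood over 1 log2 unit apart. MCM10, which loads onto replication origins, measured 9.75 and 9.61 without doxycycline against 8.12 and 8.34 with it (log2 fold change −1.45, SE 0.14, limma, adjusted p = 7.27e-04), and its other 2 probe sets passed too, at −0.99 and −0.72. SEMA3C, a secreted semaphorin, measured 7.38 and 7.31 without doxycycline against 5.63 and 6.16 with it (log2 fold change −1.45, SE 0.18, limma, adjusted p = 0.00254), and its Dox+ arrays differed by more than its Dox− arrays. PAPSS2, which makes the sulfate donor PAPS, measured 9.52 and 9.26 without doxycycline against 7.97 and 7.99 with it (log2 fold change −1.41, SE 0.14, limma, adjusted p = 8.20e-04).

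The rest of the 15 largest falls lay between −1.3 and −1.39. KLF5, a zinc finger factor of proliferating epithelia, measured 7.23 and 6.82 without doxycycline against 5.45 and 5.82 with it, and TEX15, a germ cell gene, 6.19 and 5.90 without doxycycline against 4.55 and 4.81 with it. Their adjusted p-values were 0.00357 and 0.00178 (limma). LTB, the membrane anchor of lymphotoxin, measured 7.93 and 7.74 without doxycycline against 6.46 and 6.56 with it (log2 fold change −1.33, SE 0.13, limma, adjusted p = 0.00102), while its second probe set, near 4.8, did not pass. TM4SF4, a tetraspanin-like protein of liver, measured 8.31 and 7.88 without doxycycline against 6.91 and 6.65 with it (log2 fold change −1.32, SE 0.17, limma, adjusted p = 0.00359). TNFRSF11B, the decoy receptor osteoprotegerin, measured 7.16 and 6.82 without doxycycline against 5.49 and 5.89 with it (log2 fold change −1.3, SE 0.18, limma, adjusted p = 0.00415). In all 15 both Dox+ arrays were lower than both Dox− arrays, as the rule that chose them required.

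**Figure D2:**
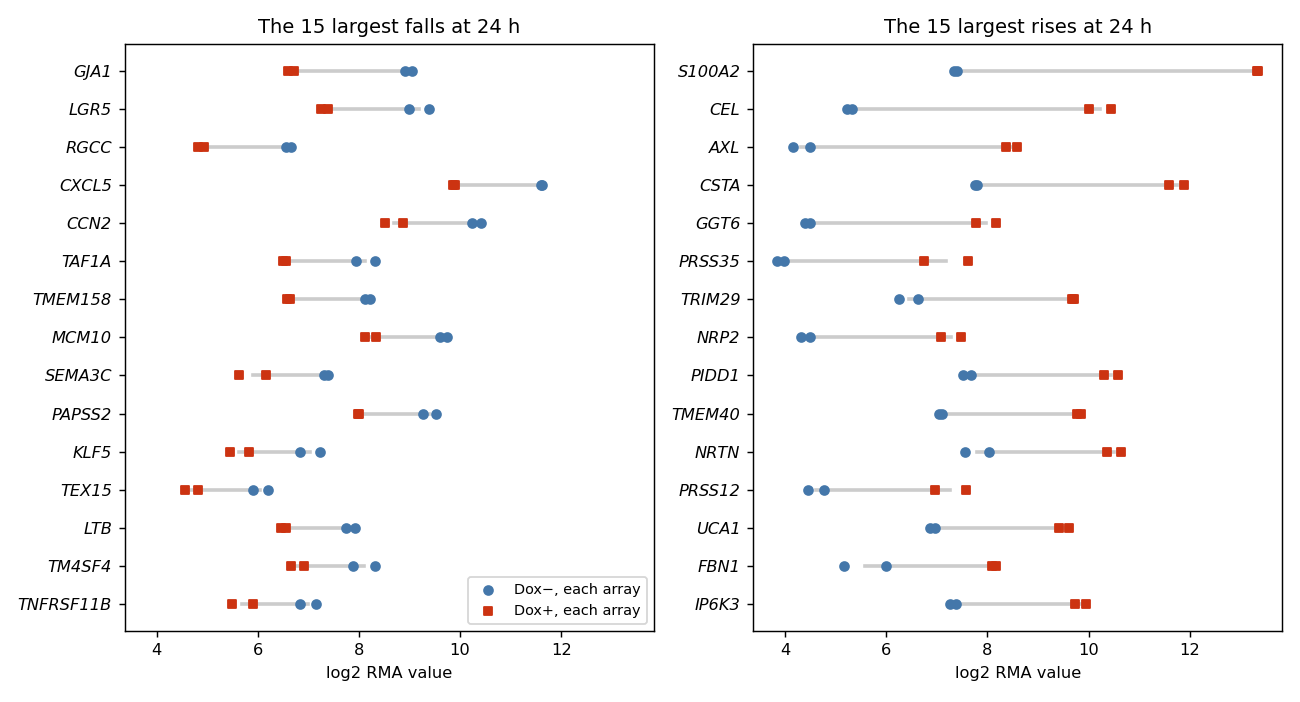
Log2 RMA value of each 24 h array for the 15 largest falls (left) and rises (right) among genes past the test whose groups do not overlap. Circles are Dox− and squares Dox+ arrays, and grey lines join group means. GJA1 falls from 9.06 and 8.92 to 6.60 and 6.72, and S100A2 rises from 7.33 and 7.40 to 13.34 and 13.36.

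Among the rises, S100A2, a calcium-binding protein of basal epithelium and a known p53 family target, measured 7.33 and 7.40 on the Dox− arrays and 13.34 and 13.36 on the Dox+ arrays. This was a 63.2-fold rise (log2 fold change 5.98, SE 0.13, limma, adjusted p = 1.18e-07), about 6 log2 units between groups whose replicates differed by less than 0.1. CEL, the bile salt-stimulated lipase, measured 5.32 and 5.22 without doxycycline against 10.00 and 10.45 with it (log2 fold change 4.96, SE 0.17, limma, adjusted p = 3.40e-06). AXL, a receptor tyrosine kinase, measured 4.15 and 4.48 without doxycycline against 8.36 and 8.58 with it (log2 fold change 4.15, SE 0.16, limma, adjusted p = 4.91e-06). CSTA, a cysteine protease inhibitor of cornified epithelium, measured 7.80 and 7.76 without doxycycline against 11.58 and 11.90 with it (log2 fold change 3.96, SE 0.15, limma, adjusted p = 4.91e-06). In all 4 genes the Dox+ arrays lay over 3 log2 units above the Dox− arrays. GGT6, PRSS35, TRIM29, NRP2, PIDD1, TMEM40, NRTN, PRSS12, UCA1, FBN1 and IP6K3 followed, from 3.53 for the γ-glutamyltransferase relative GGT6 down to 2.52 for the inositol phosphate kinase IP6K3, with adjusted p-values (limma) between 1.55e-05 and 5.71e-04. Of these, PRSS35 had the widest gap between replicates, at 6.75 and 7.62 on the Dox+ arrays.

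G2/M and mitosis genes held more falls than any other list. Of 60 measured members 36 were lower (60.0%, against 2.81% of all genes) and none higher. All 60 had a log2 fold change below 0, as had 9038 of the 19775 genes tested. Their median was −0.60, where that of all genes was 0.02 and that of level class 4, which holds 48 of the 60, was −0.09. AURKB, the kinase of the chromosomal passenger complex, measured 10.03 and 10.11 without doxycycline against 9.03 and 9.04 with it (log2 fold change −1.04, SE 0.13, limma, adjusted p = 0.00243). DEPDC1B, which links mitosis to cell detachment, measured 10.58 and 10.25 without doxycycline against 9.31 and 9.28 with it (log2 fold change −1.12, SE 0.15, limma, adjusted p = 0.00361). KIF18A, a kinesin that sets chromosome alignment, measured 8.52 and 8.39 without doxycycline against 7.25 and 7.53 with it (log2 fold change −1.06, SE 0.14, limma, adjusted p = 0.00407). In each of the 3 the groups stood about 1 log2 unit apart without overlap. FAM83D and PLK4, a spindle protein and the kinase of centriole duplication, fell by 1.0 and 0.97. Smaller falls passed for the mitotic kinase CDK1 (−0.60, adjusted p = 0.0332), cyclins CCNB1 (−0.63, adjusted p = 0.0246) and CCNA2 (−0.59, adjusted p = 0.0329), FOXM1 (−0.65, adjusted p = 0.0289) and MKI67 (−0.63, adjusted p = 0.0278). CCNB2 (−0.41, adjusted p = 0.117), CDC20 (−0.46, adjusted p = 0.0812), PLK1 (−0.38, adjusted p = 0.526), TOP2A (−0.47, adjusted p = 0.0736) and AURKA (−0.00, adjusted p = 0.997) did not pass.

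Fewer G2/M members were called whichever single array was left out. Leaving out Dox− replicate 1, Dox− replicate 2, Dox+ replicate 1 or Dox+ replicate 2 left 15, 20, 14 and 19, and quantile normalization left 24, while 56 to 59 members lay below 0 in these settings. At 12 h no member of the list passed and the median was −0.10. At 48 h 56 of the 60 were lower, with a median of −0.61.

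Motif shares are given for these promoters as a description. Of 49 G2/M members with a promoter in the RefSeq table, 23 (46.9%) held the CHR and 36 (73.5%) a CCAAT box, against 10.6% and 34.1% of 15384 promoters of all genes with one. Among genes called lower at 24 h the shares were 14.5% and 41.4%, and among genes called higher 9.38% and 29.2%. Within the list, members with the CHR in the window had a median change of −0.60 and members without it −0.63. The TEAD motif lay in 12.8% of the promoters of genes called lower, 9.59% of those called higher and 10.3% of all. Over any start RefSeq lists, these shares were 16.3%, 15.4% and 13.6%, so genes called higher then lay above all genes. A p53 family half-site lay in 3.20% of promoters of genes called higher and 5.10% of all, but in 7.46% and 6.88% when any start RefSeq lists for the gene was counted. The E-box lay in 7.59% of those called lower and 7.83% of all, and in 10.2% and 9.69% over any listed start. The order against all genes thus turned with the choice of start for the half-site, the E-box and, among rises, the TEAD motif. Distal elements were not searched.

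DNA replication genes also held mostly falls. Of 62 measured members 15 were lower (24.2%) and 1 higher (1.61%), against 2.81% and 3.01% of all genes. Below 0 lay 51 members, with a median of −0.28. Level class 4 held 47 of the 62, and 62.4% of all its genes lay below 0. Beside MCM10, the falls with the largest size were E2F8 (−0.91, adjusted p = 0.0123), an atypical E2F repressor, CLSPN (−0.85, adjusted p = 0.0131), a mediator of the ATR checkpoint, DBF4 (−0.84, adjusted p = 0.0128), the partner of CDC7 kinase, and CDC45 (−0.79, adjusted p = 0.0105), of the replicative helicase. MCM7 (−0.74, adjusted p = 0.0128) and MCM2 (−0.55, adjusted p = 0.0374) passed, whereas MCM3 (−0.48, adjusted p = 0.0594), MCM4 (−0.06, adjusted p = 0.824), MCM5 (−0.09, adjusted p = 0.762), MCM6 (0.02, adjusted p = 0.943) and PCNA (−0.11, adjusted p = 0.7) did not. E2F7, another atypical E2F and itself a p53 family target, was the member that rose, at 8.98 and 8.78 on the Dox− arrays and 9.45 and 9.41 on the Dox+ arrays (log2 fold change 0.55, SE 0.13, limma, adjusted p = 0.048). With the same arrays left out in turn, 4, 6, 7 and 10 members were called lower, and after quantile normalization 9. None of 34 core and linker histone genes passed in limma, with 4 at an unadjusted p under 0.05.

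Ribosome biogenesis genes, which process rRNA in the nucleolus, were lower for 9 of 43 members (20.9%, against 2.81% of all genes) and higher for none. Below 0 lay 40 members, with a median of −0.34. Level class 4 held 32 of the 43, and 62.4% of all its genes lay below 0. TSR1, needed for 40S maturation, measured 11.09 and 11.10 without doxycycline against 10.15 and 10.18 with it (log2 fold change −0.93, SE 0.12, limma, adjusted p = 0.00382). NIP7 (−0.77, adjusted p = 0.034), PNO1 (−0.76, adjusted p = 0.0106), MRTO4 (−0.65, adjusted p = 0.0199) and LYAR (−0.62, adjusted p = 0.028) also passed. Other probe sets of TSR1, NIP7, PNO1, MRTO4 and LYAR lay between −0.59 and −0.07 and did not pass. NCL (−0.29, adjusted p = 0.248), FBL (−0.34, adjusted p = 0.196) and NPM1 (−0.07, adjusted p = 0.803), among the most abundant nucleolar proteins, did not. With each array left out in the same order, 2, 4, 3 and 5 members were called, and after quantile normalization 4. Of the 50 measured cytosolic ribosomal protein genes none passed in limma, 1 had an unadjusted p under 0.05, and the median was 0.04. MYC, a driver of ribosome biogenesis and here a member of the Wnt list, measured 11.53 and 11.59 without doxycycline against 10.70 and 10.45 with it (log2 fold change −0.98, SE 0.14, limma, adjusted p = 0.00506).

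Immediate early and ERK feedback genes moved down at 24 h in 7 of 27 members and up in none, with a median of −0.23. The falls were 25.9% of the list, against 2.81% of all genes. FOS, a subunit of the AP-1 factor, measured 6.76 and 6.65 on the Dox− arrays and 5.36 and 5.62 on the Dox+ arrays (log2 fold change −1.22, SE 0.14, limma, adjusted p = 0.00201), without overlap. EGR1, a zinc finger factor induced within minutes by growth factors, measured 10.96 and 11.01 without doxycycline against 10.03 and 10.27 with it (log2 fold change −0.84, SE 0.14, limma, adjusted p = 0.0106). Of its other 2 probe sets, one passed at −1.34, and the other, at 0.27, did not pass. IER3 (−0.82, adjusted p = 0.0108), the RAS inhibitor SPRED1 (−0.70, adjusted p = 0.0154), PHLDA1 (−0.63, adjusted p = 0.0235), the phosphatase DUSP10 (−0.61, adjusted p = 0.0258) and IER2 (−0.53, adjusted p = 0.0438) also fell. JUN (−0.05, adjusted p = 0.854), DUSP6 (−0.50, adjusted p = 0.0629) and the Sprouty gene SPRY2 (−0.38, adjusted p = 0.188) did not pass. With each array left out in the same order, the list held 2, 4, 3 and 4 falls.

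Members of the YAP/TEAD list, which holds the coactivator gene WWTR1 as well as targets, went both ways, with a median of −0.07. Of 29, 6 were lower (20.7%) and 3 higher (10.3%), against 2.81% and 3.01% of all genes. Beside CCN2, the falls were CCN1 (CYR61), measuring 10.74 and 10.69 without doxycycline against 9.65 and 9.93 with it (log2 fold change −0.93, SE 0.14, limma, adjusted p = 0.00781), with its second probe set at −1.18 and past the test, the nuclear ankyrin protein gene ANKRD1 (−0.78, adjusted p = 0.0109), WWTR1, TGFB2 (−0.70, adjusted p = 0.0278) and the coagulation starter F3 (−0.62, adjusted p = 0.0288). WWTR1 encodes TAZ and measured 9.32 and 9.0 without doxycycline against 8.36 and 8.48 with it (log2 fold change −0.74, SE 0.15, limma, adjusted p = 0.0241). Its fall did not pass without Dox− replicate 1 or without Dox+ replicate 1. With each array left out in the same order as above, the list held 3, 5, 3 and 4 falls and 2 rises. YAP1 measured 10.59 and 10.22 on the Dox− arrays and 10.35 and 10.32 on the Dox+ arrays (log2 fold change −0.07, SE 0.15, limma, adjusted p = 0.849), with the groups overlapping. The rises were AXL, AMOTL1 (1.33, adjusted p = 8.66e-04), an angiomotin that holds YAP outside the nucleus, and the phosphatase PTPN14 (0.56, adjusted p = 0.0492).

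Counts in this paragraph stand beside 2.81% of all genes called lower and 3.01% called higher. Wnt genes held 4 falls (17.4%) and 2 rises (8.70%) among 23, with a median of −0.10. The falls were LGR5, TNFRSF19 (−1.12, adjusted p = 0.00161), MYC and the secreted inhibitor DKK1, which measured 13.76 and 13.86 without doxycycline against 13.08 and 13.09 with it (log2 fold change −0.73, SE 0.13, limma, adjusted p = 0.013). The other 2 TNFRSF19 probe sets, at 0.21 and −0.14, did not pass. NKD2 (0.59, adjusted p = 0.0314) and TCF7L2 (0.56, adjusted p = 0.0483) rose, and neither passed with any 1 of the 4 arrays left out, when the list held 4, 3, 4 and 4 falls. CTNNB1, the gene of beta-catenin, measured 11.78 and 11.97 on the Dox− arrays and 11.95 and 12.22 on the Dox+ arrays (log2 fold change 0.21, SE 0.15, limma, adjusted p = 0.485), with overlapping groups. One of the 2 dimmer CTNNB1 probe sets gave −0.62 (adjusted p = 0.0379 over all probe sets), opposite to the brightest, so its direction depends on the probe set. Genes of TGF-beta signalling had 3 falls (BMP2, TGFB2 and BMP4) and 2 rises (LTBP2 and BHLHE40) among 24, and 2, 2, 1 and 1 falls with each array left out in the same order. BMP2 measured 8.89 and 9.02 without doxycycline against 7.90 and 8.13 with it (log2 fold change −0.94, SE 0.14, limma, adjusted p = 0.00668).

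Liver transcription factors were lower in 9 of 32 members (28.1%, against 2.81% of all genes) and higher in none, with a median of −0.15. NR0B2 (SHP), the bile acid-responsive repressor, measured 9.12 and 9.24 on the Dox− arrays and 8.06 and 8.07 on the Dox+ arrays (log2 fold change −1.11, SE 0.13, limma, adjusted p = 0.00189). HHEX, a homeobox factor of the liver bud, measured 10.69 and 10.97 without doxycycline against 9.88 and 9.75 with it (log2 fold change −1.01, SE 0.14, limma, adjusted p = 0.00547). HNF4G (−0.97, adjusted p = 0.018), PPARG (−0.88, adjusted p = 0.00818), SOX9 (−0.80, adjusted p = 0.00974), PROX1 (−0.78, adjusted p = 0.0194), NR2F1 (−0.76, adjusted p = 0.0178), FOXA3 (−0.73, adjusted p = 0.0144) and ONECUT2 (−0.71, adjusted p = 0.0256) also fell. The other HNF4G probe set, a dim one at 0.17, did not pass. FOXA1 (−0.51, adjusted p = 0.0557), FOXA2 (0.13, adjusted p = 0.658), CEBPA (0.33, adjusted p = 0.2) and GATA4 (0.02, adjusted p = 0.962) did not pass. With each array left out in the same order, the falls numbered 5, 7, 5 and 10.

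Secreted and metabolic products of hepatocytes moved in both directions or did not pass. Among all genes tested 2.81% were called lower and 3.01% higher, and several lists here held few calls. ALB measured 14.38 and 14.42 on the Dox− arrays and 14.39 and 14.32 on the Dox+ arrays (log2 fold change −0.05, SE 0.13, limma, adjusted p = 0.868). This ALB probe set lay near the highest gene level at 24 h, 14.50. The other 3 ALB probe sets gave −0.33, −0.69 and 0.39 and did not pass. AFP measured 9.84 and 9.51 on the Dox− arrays and 9.31 and 9.40 on the Dox+ arrays (log2 fold change −0.32, SE 0.15, limma, adjusted p = 0.275), where both Dox+ arrays lay below both Dox− arrays and the difference missed the threshold. Of 58 plasma protein genes 5 rose and 3 fell, and 2 rises passed without Dox− replicate 2. The corticosteroid carrier SERPINA6 measured 9.90 and 9.56 without doxycycline against 11.01 and 11.06 with it (log2 fold change 1.3, SE 0.15, limma, adjusted p = 0.00187), and SERPINA7, C1S, AGT and F7 rose by 0.88, 0.84, 0.75 and 0.68. The fibrinogen chain genes FGG and FGA fell by 0.93 and 0.82, and complement C5 by 0.69. FGB (−0.41, adjusted p = 0.117) did not pass. Of 29 bile acid genes 2 fell, NR0B2 and the canalicular exporter ABCC2, at 6.51 and 6.38 without doxycycline against 5.33 and 5.35 with it (log2 fold change −1.10, SE 0.13, limma, adjusted p = 0.00201). Cytochrome P450 and conjugation genes had 5 rises, led by CYP4F3 (1.83, adjusted p = 5.58e-04), CYP2S1 (1.63, adjusted p = 0.00369) and the sulfotransferases SULT2A1 (1.16, adjusted p = 0.00754) and SULT1E1 (1.15, adjusted p = 0.0469), and 5 falls, led by PAPSS2. With each array left out in the same order 2, 3, 2 and 3 falls passed. SULT1E1 measured 7.01 and 5.98 without doxycycline against 7.58 and 7.72 with it, so its Dox− arrays lay 1 log2 unit apart. Without Dox− replicate 1 its log2 fold change was 1.67, and without Dox− replicate 2 it was 0.63 and did not pass. It also missed the threshold after quantile normalization and with the trend and robust options of eBayes. Of 31 cholesterol and fatty acid synthesis genes 3 fell, among them INSIG2 (−1.0, adjusted p = 0.00363), which holds SREBP in the endoplasmic reticulum, and the sterol dehydrogenase gene NSDHL rose (0.62, adjusted p = 0.0282). With each array left out in the same order, 2, 1, 1 and 1 falls and no rise passed, and choosing each gene's most variable probe set (by interquartile range) gave 6 falls. Of 39 fatty acid oxidation and peroxisome genes 2 rose (5.13%) and none fell, while 22 lay below 0, with a median of −0.04. Of 37 hepatocyte metabolism genes 1 rose and 1 fell (2.70% each). Among the rises of these lists, CROT, which moves medium-chain acyl groups out of peroxisomes, measured 8.88 and 8.58 without doxycycline against 10.83 and 11.21 with it (log2 fold change 2.29, SE 0.17, limma, adjusted p = 1.86e-04). PRODH, the first enzyme of proline breakdown, measured 7.51 and 8.26 without doxycycline against 9.47 and 9.89 with it (log2 fold change 1.80, SE 0.24, limma, adjusted p = 0.00373). None of 63 oxidative phosphorylation genes passed in limma, with 8 at an unadjusted p under 0.05.

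Junction, adhesion and chemokine genes were mixed as well. Counts here stand beside 2.81% of all genes called lower and 3.01% called higher. Of 39 gap, tight and adherens junction genes 5 fell and 1 rose. Leaving out Dox− replicate 1, Dox− replicate 2, Dox+ replicate 1 or Dox+ replicate 2 gave 2, 2, 3 and 2 members called lower. Beside GJA1 the falls were VSIG1 (−0.95, adjusted p = 0.00526), CDH6 (−0.78, adjusted p = 0.0156), the tight junction protein gene OCLN (−0.65, adjusted p = 0.0229) and MARVELD3 (−0.60, adjusted p = 0.0352). NECTIN4, the rise, measured 5.68 and 5.19 without doxycycline against 7.24 and 7.33 with it (log2 fold change 1.84, SE 0.17, limma, adjusted p = 6.07e-04). TJP1 (0.14, adjusted p = 0.589), CDH1 (0.43, adjusted p = 0.128) and EPCAM (−0.09, adjusted p = 0.75) did not pass. Of 27 genes of epithelial-mesenchymal transition 2 fell (7.41%) and 1 rose (3.70%), with a median of 0.08. With all 14 arrays in 1 fit 6 fell and 1 rose. With each gene's most variable probe set (by interquartile range) 5 fell and 2 rose. VIM, the mesenchymal intermediate filament, measured 12.36 and 12.52 without doxycycline against 11.35 and 11.26 with it (log2 fold change −1.13, SE 0.13, limma, adjusted p = 0.00205), and the matrix glycoprotein gene THBS1 measured 10.96 and 11.09 without doxycycline against 9.63 and 10.09 with it (log2 fold change −1.16, SE 0.17, limma, adjusted p = 0.00587), with 5 of its 6 other probe sets also past the test. MMP14, a membrane-bound collagenase and the list's rise, measured 8.36 and 8.59 without doxycycline against 9.69 and 9.72 with it (log2 fold change 1.23, SE 0.14, limma, adjusted p = 0.00155). Keratin genes KRT18 (−0.51, adjusted p = 0.0501) and KRT19 (−0.16, adjusted p = 0.55) did not pass, although KRT18 measured 13.06 and 13.07 on the Dox− arrays and 12.58 and 12.54 on the Dox+ arrays without overlap. KRT18 passed in 5 of 14 alternatives, among them the fit of all 14 arrays and centring on array medians, and over these its adjusted p ranged from 2.88e-05 to 0.259. Of 28 chemokine and NF-κB genes 4 fell (CXCL5, LTB, CXCL8 and CXCL12) and CXCL11 rose, with log2 fold changes of −0.94 for CXCL8, −0.79 for CXCL12 and 0.62 for CXCL11, and no rise passed without Dox− replicate 1 or without Dox+ replicate 2. Cholangiocyte and progenitor genes had 3 falls (LGR5, TM4SF4, SOX9) and 1 rise (DLK1) among 28, with no rise without either Dox+ array. Of the chemokine genes above, the other CXCL8 probe set passed at −1.98, while those of CXCL12 (−0.23) and CXCL11 (0.21) did not pass. Of 37 hypoxia and glycolysis genes 2 rose and 2 fell, with a median of −0.03. Among these, ADM, a hypoxia-induced peptide hormone, fell by 1.0 and the glycolytic gene PFKP rose by 2.22.

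The p53 family, squamous, matrix and Notch lists held rises and at most 1 fall each. Among all genes 3.01% were called higher and 2.81% lower. Of 20 arrest and repair targets 6 rose (30.0%) and none fell, with a median of 0.27. CDKN1A measured 9.49 and 9.78 on the Dox− arrays and 11.97 and 12.03 on the Dox+ arrays (log2 fold change 2.37, SE 0.14, limma, adjusted p = 7.63e-05), without overlap. MDM2, the ubiquitin ligase in feedback on the family, measured 11.002 and 10.80 without doxycycline against 12.67 and 12.72 with it (log2 fold change 1.79, SE 0.13, limma, adjusted p = 1.93e-04). PHLDA3, SFN, SESN1 and GADD45A rose by 1.29, 1.23, 1.01 and 0.56. Of 18 apoptosis targets 5 rose: PIDD1 (2.85, adjusted p = 3.12e-05), the death receptor FAS (1.67, adjusted p = 0.00168), TP53I3 (1.26, adjusted p = 0.00102), APAF1 (1.17, adjusted p = 0.00654) and TNFRSF10B (0.61, adjusted p = 0.0432). The other 2 APAF1 probe sets (0.21 and 0.03) and the other 3 of TNFRSF10B (0.05, 0.01 and 0.04) did not pass. TNFRSF10B also missed the threshold with each array centred on its median. BAX measured 9.52 and 9.34 on the Dox− arrays and 9.39 and 9.35 on the Dox+ arrays (log2 fold change −0.06, SE 0.13, limma, adjusted p = 0.856), with overlapping groups.

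For the lists that follow, 3.01% of all genes were called higher and 2.81% lower. Of 41 squamous and desmosome genes 9 rose (22.0%) and none fell. These were S100A2, CSTA, TRIM29, TMEM40, FXYD3 (2.30, adjusted p = 8.52e-05), the antimicrobial RNASE7 (2.04, adjusted p = 0.00189), the plakin PPL (1.25, adjusted p = 0.00108), SFN and KRT15 (0.68, adjusted p = 0.017), while KRT5 (0.51, adjusted p = 0.149) did not pass. Of 50 matrix and hemidesmosome genes 9 rose and 1 fell. FBN1, the fibrillin of elastic fibres, measured 5.98 and 5.16 without doxycycline against 8.17 and 8.08 with it (log2 fold change 2.55, SE 0.23, limma, adjusted p = 5.71e-04), HAS3, a hyaluronan synthase, 5.81 and 5.92 without doxycycline against 8.15 and 8.39 with it (log2 fold change 2.4, SE 0.14, limma, adjusted p = 6.34e-05), and LAMB3, of laminin-332, 6.09 and 6.58 without doxycycline against 8.65 and 8.54 with it (log2 fold change 2.26, SE 0.17, limma, adjusted p = 2.08e-04). In the Notch list 4 of 23 rose (NOTCH1, JAG2, HES4 and HES5) and none fell, with 2 members called higher without Dox− replicate 1. NOTCH1 measured 8.05 and 7.71 without doxycycline against 8.94 and 8.88 with it (log2 fold change 1.03, SE 0.15, limma, adjusted p = 0.00586), and its ligand gene JAG1 measured 10.61 and 10.54 on the Dox− arrays and 10.91 and 11.11 on the Dox+ arrays (log2 fold change 0.43, SE 0.13, limma, adjusted p = 0.103) and did not pass on this probe set. Its 5 other probe sets ranged from −0.17 to 0.68, and those at 0.59 and 0.68 passed. Of 34 ATF4 genes NUPR1 (1.61, adjusted p = 2.92e-04), DDIT4 (1.03, adjusted p = 0.00964) and DDIT3 (0.55, adjusted p = 0.0383) rose and SLC3A2 (−0.59, adjusted p = 0.0332) fell. In the ATF4 list 1 member was called higher without Dox− replicate 2, and none was called lower with any 1 array left out. Of 38 interferon-stimulated genes 2 rose (5.26%, against 3.01% of all genes), TAP1 (0.86, adjusted p = 0.0168) and ISG15 (0.59, adjusted p = 0.0418), while 24 members lay below 0 with a median of −0.07. Without Dox− replicate 1, or without Dox− replicate 2, 1 member of the list was called higher.

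More genes were called at 24 h than at 12 h and fewer than at 48 h, and the comparisons share no arrays. At 12 h 128 genes were higher (0.647%) and 4 lower (0.0202%), and at 48 h 2229 were higher (11.3%) and 2549 lower (12.9%). These counts come from unequal numbers of arrays and unequal spreads. Of the 596 rises at 24 h 111 were also called higher at 12 h, which is 18.6% of the 24 h list and 86.7% of the 12 h list. For the 556 falls the number was 2, which is 0.360% and 50%. At 12 h the genes that fell at 24 h had a median of −0.14, and those that rose had a median of 0.60. At 48 h 521 of the 24 h rises (87.4%, and 23.4% of the 48 h list) and 422 of the falls (75.9%, and 16.6%) were called in the same direction. Another 13 of the falls were called higher at 48 h, and 2 of the rises were called lower.

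The difference between the 24 h effect and that at another time was tested in 1 fit of all 14 arrays and was called where it passed both without and with weights per time point. An effect at 24 h above that at 12 h was called for 3 genes (0.0152%), CSTA, GGT6 and LCN15, and an effect at 24 h below that at 12 h for none, where the limma fit without weights alone called 102 and 106. CSTA measured 7.95 and 8.13 (Dox−) and 9.97 and 10.12 (Dox+) at 12 h, and its effect was larger at 24 h by 1.96 (SE 0.18, adjusted p = 4.71e-04 without and 0.0129 with weights). LCN15, a lipocalin, measured 6.71 and 6.46 without doxycycline against 8.70 and 8.97 with it at 24 h and differed by 1.87 (SE 0.21, adjusted p = 0.00209 without and 0.0297 with weights). GGT6 differed by 1.56 (SE 0.17, adjusted p = 0.00209 without and 0.0297 with weights). Without Dox− 24 h replicate 2 the counts became 83 larger and 42 smaller, without Dox− 12 h replicate 1 they became 11 and 51, and with Dox− 24 h replicate 1, Dox+ 24 h replicate 2, Dox− 12 h replicate 2 or either Dox+ 12 h array left out no gene passed. List medians of the ERK and G2/M genes were −0.23 and −0.60 at 24 h and −0.18 and −0.10 at 12 h, a difference that was not tested.

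Against 48 h the effect at 24 h was above that at 48 h for 31 genes (0.157%) and below it for 99 (0.501%). Of the 99, 24 were higher at both times, 21 were lower at 24 h, and 7 of those 21 were higher at 48 h. CCN2 was among the 7. At 48 h it measured 9.75, 9.77 and 9.80 on the Dox− arrays and 10.14, 10.20 and 10.45 on the Dox+ arrays, an effect of 0.49, and the difference from the 24 h effect of −1.64 was −2.12 (SE 0.23, adjusted p = 5.91e-04 without and 1.08e-04 with weights). On the Dox− arrays it was highest at 24 h, and on the Dox+ arrays highest at 48 h. CCN1 had an effect of −0.93 at 24 h and 1.07 at 48 h, and differed by −2.0 (SE 0.19, adjusted p = 1.23e-04 without and 3.28e-05 with weights). It too was highest at 24 h on the Dox− arrays (10.74 and 10.69, against 9.86, 10.04 and 9.97 at 48 h), and on the Dox+ arrays it went from 9.65 and 9.93 to 10.998, 11.05 and 11.03. FOS went from an effect of −1.22 to 0.61, a difference of −1.83 (SE 0.32, adjusted p = 0.0187 without and 0.00226 with weights), while its level rose in both groups, to 8.06, 8.14 and 8.0 (Dox−) and 8.64, 8.72 and 8.66 (Dox+). ANKRD1 had effects of −0.78 and 0.80, but its difference did not pass in both fits, and its 12 h arrays differed widely within groups, at 4.94 and 6.81 (Dox−) and 4.46 and 6.03 (Dox+).

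VIM and WWTR1 fell at 24 h and were not called at 48 h. VIM had an effect of 0.09 at 48 h, a difference of −1.23 (SE 0.17, adjusted p = 0.00328 without and 0.00115 with weights). On the Dox− arrays it went from 12.36 and 12.52 at 24 h to 11.75, 11.75 and 11.76 at 48 h, and on the Dox+ arrays from 11.35 and 11.26 to 11.78, 11.79 and 11.97. WWTR1 had an effect of 0.18 at 48 h, a difference of −0.91 (SE 0.16, adjusted p = 0.0174 without and 0.0113 with weights). JAG1, not called at 24 h, had an effect of 1.52 at 48 h, a difference of −1.09 (SE 0.13, adjusted p = 0.00156 without and 0.00109 with weights). Its Dox+ arrays were alike at both times (10.91 and 11.11, then 11.02, 11.06 and 10.93), and its Dox− arrays were lower at 48 h (9.47, 9.42 and 9.54).

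Among rises with a lower effect at 24 h than at 48 h, RNASE7 measured 3.84 and 4.58 without doxycycline against 6.06 and 6.45 with it at 24 h and 3.95, 3.78 and 3.91 (Dox−) against 8.88, 8.96 and 9.23 (Dox+) at 48 h, a difference of −3.10 (SE 0.28, adjusted p = 1.19e-04 without and 3.28e-05 with weights). CYP4F3, a leukotriene hydroxylase, differed by −2.12 (SE 0.20, adjusted p = 1.19e-04 without and 6.99e-05 with weights), the non-coding RNA UCA1 by −1.93 (SE 0.24, adjusted p = 0.0016 without and 0.00304 with weights), and GPC4, a glypican not called at 24 h, by −1.90 (SE 0.18, adjusted p = 1.19e-04 without and 6.99e-05 with weights). CEL was among the 31 genes with the higher effect at 24 h. It had effects of 4.96 and 3.59, a difference of 1.37 (SE 0.27, adjusted p = 0.0308 without and 0.0127 with weights), with Dox+ levels of 10.00 and 10.45 at 24 h and 8.96, 9.03 and 9.24 at 48 h. That difference passed in none of the 10 fits with a 24 h or 48 h array left out. SULT2A1 rose by 1.16 at 24 h and was lower by 48 h (−0.38), a difference of 1.53 (SE 0.20, adjusted p = 0.0026 without and 0.00109 with weights). PPP1CB, a phosphatase catalytic subunit, measured 9.41 and 9.63 without doxycycline against 11.12 and 10.72 with it, but its Dox− arrays had been at 10.68 and 10.61 at 12 h, and its other 3 probe sets, at 0.13, 0.34 and 0.38, did not pass. The difference of 1.19 (SE 0.19, adjusted p = 0.0105 without and 0.0113 with weights) did not pass without Dox+ 24 h replicate 1. The bile acid transporter subunit SLC51B, the islet and gut factor RFX6 and the urea cycle enzyme CPS1 were not called at 24 h (0.34, −0.20 and 0.27) and were lower at 48 h (−1.03, −1.88 and −0.92), with differences of 1.37, 1.68 and 1.19. The other CPS1 probe set gave −0.32 at 24 h and did not pass, and the CPS1 difference rests on the brightest probe set alone.

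**Figure D3:**
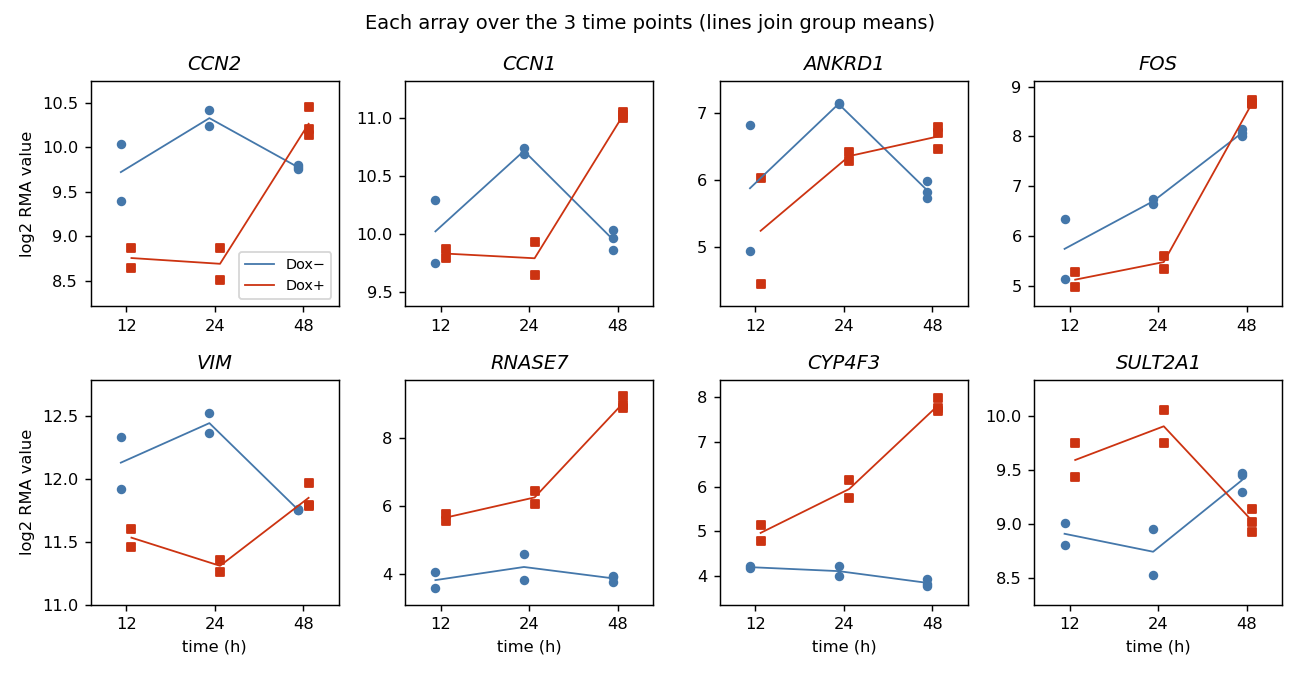
Log2 RMA value of each array at 12, 24 and 48 h for 8 genes, with Dox− as blue circles and Dox+ as red squares, and lines through the group means. CCN2, CCN1 and FOS lie lower on Dox+ arrays at 24 h and higher at 48 h. RNASE7 and CYP4F3 keep rising on the Dox+ arrays.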

How the data were processed

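Expression was measured on Affymetrix U133 Plus 2.0 arrays. The deposited table holds log2 values, which the authors made from the scanned arrays by RMA normalization (R 3.5.1 per the labels), and they left out outlier arrays. Scanner files were not used here. Of 54675 probe sets, 62 controls were left out, 41091 were assigned to 1 gene through the platform annotation (41037 with symbols matched by Entrez identifier), 1801 to several and 11721 to none. The brightest single-gene probe set over all 14 arrays stood for its gene, which gave 19775 genes.

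The 2 Dox+ and 2 Dox− arrays of 24 h were compared with limma 3.58.1 (lmFit and eBayes, two-sided) in R 4.3.3, with Benjamini-Hochberg adjustment over all genes and a threshold of 0.05. Probe sets not used for a gene were tested in a fit of all single-gene probe sets. Effects at 24 h were compared with those at 12 h and 48 h in 1 limma fit of 14 arrays, and a difference was called where it passed both without and with array weights estimated per time point. The script was tested on simulated data. With 2 arrays a group, array number limits the precision, and the 14-array fit assumes a shared spread.

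The genes, gene lists and tests were chosen with earlier results of these data known. Named are genes the study discusses in Hep3B cells, the 15 largest non-overlapping falls and rises, up to 5 members of each list that passed and changed most, the 6 largest differences of effect each way, and defining members that did not pass. Other list members that are named as having passed, and the JAG1, FOS, VIM and WWTR1 differences, were chosen after their values were seen. Promoters are from RefSeq (GRCh38.p14), with 15384 genes matched. The CCAAT motif was added to the motifs planned, and KIF18A to the promoters printed, after values were seen. Alternatives covered the samples in the fit, arrays left out in turn, scaling, the probe set, dim genes, eBayes options, fold thresholds, the t-test of the methods and a replicate block. Figures and counts were made with Python 3.11.15, pandas 2.3.3, numpy 2.4.6 and matplotlib 3.10.9. Some genes are not reported here.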

Additional observations from a re-analysis of the deposited data

Results flagged for a closer look

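Results are listed here because the effect of induction on a gene differed between time points in the test of the difference itself (limma, 14 arrays, adjusted p below the threshold both without and with weights per time point). Values are log2 effects at 24 h minus those at the other time. Against 12 h, CSTA (1.96), LCN15 (1.87) and GGT6 (1.56) had a higher effect at 24 h, and each missed the threshold in at least 5 alternatives that left out an array. Against 48 h, the effect at 24 h was higher for RFX6 (1.68), SULT2A1 (1.53), SLC51B (1.37), CEL (1.37), PPP1CB (1.19) and CPS1 (1.19). It was lower for RNASE7 (−3.10), CCN2 (−2.12), CYP4F3 (−2.12), CCN1 (−2.0), UCA1 (−1.93) and GPC4 (−1.90). The differences of PPP1CB, CPS1 and UCA1 did not pass without Dox+ 24 h replicate 1, that of SLC51B did not pass in 5 and that of CEL in 11 of 15 alternatives, and those of the other 7 genes passed in every alternative run. The 7 are CCN1, CCN2, CYP4F3, GPC4, RFX6, RNASE7 and SULT2A1. Each time point has its own Dox− arrays, and what set the Dox− levels of CCN2 and CCN1 highest at 24 h was not tested.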

How the results depend on the processing

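Each value is given as genes higher at 24 h, then genes lower at 24 h, where both are named. The 596 and 556 calls became 1106 and 1202 with all 14 arrays in 1 fit, 946 and 1274 with the trend and robust options of eBayes, and 0 and 0 by the methods' t-test after Benjamini-Hochberg adjustment, where 1262 and 1487 had an unadjusted p under 0.05. Falls numbered 969 with dim genes left out, 1046 with the probe set of largest interquartile range, 1294 with every probe set on its own, 348 after quantile normalization and 1005 with each array centred on its median. With an array left out, 402 to 488 genes were higher and 168 to 375 lower. The genes at least 2-fold higher at 24 h numbered 627 at a 1.5-fold and 68 at a 3-fold threshold, and 206 to 263 with an array left out. The genes at least 2-fold lower at 24 h numbered 150 with the interquartile-range probe set, 182 with every probe set, 86 with centring, 514 at 1.5-fold, 6 at 3-fold and 56 to 91 with an array left out. An effect at 24 h above that at 12 h was called for 102 genes without weights, 6 after quantile normalization, 1 with dim genes left out and 0 to 83 with an array left out. An effect at 24 h below that at 12 h was called for 106 genes without weights, 1 after quantile normalization, 1 with the replicate block and 0 to 51 with an array left out. An effect at 24 h above that at 48 h was called for 12 genes with the replicate block and 2 to 65 with an array left out, and an effect at 24 h below that at 48 h for 64 and 13 to 70. Directions reversed with the interquartile-range probe set for CTNNB1 (−0.62), NSDHL (−0.10) and CPT1A (−0.022). The replicate block gave 641 and 561 calls. Same-numbered arrays did not deviate together (r = −0.11 over genes, which are not independent replicates), and a crossed replicate block, chosen after seeing the data, gave 778 and 815. The causes of these shifts were not tested.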
